A study of Mus musculus with 6 samples.

Results

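Igf2, Bmp3, Chrdl1, Id3 and Tgfbr2 are 5 mouse genes that encode a growth factor of the insulin-like family and components of BMP and TGF-beta signalling. They were taken by symbol from the authors' deposited table of 1285 genes, and all 5 had a row there. That table is limited to an unadjusted p below 0.05 out of 16718 tested by the authors, so a difference between the groups was the condition for being considered at all. The values below are therefore a description of the 5 genes and not a test of them.

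The material was bone marrow mesenchymal stem and progenitor cells (MSPCs), stromal cells that support blood stem cells. They were sorted as CD45-, Ter119-, CD31- and Nes-GFP+ (a nestin-driven green reporter carried by both genotypes) from mice aged 8 weeks, with 2000 cells per library. There were 3 libraries of Snai2-/- mice and 3 of Control littermates, whose exact genotype is not given in the labels. Snai2 encodes Slug, a zinc-finger repressor of the Snail family. The values analysed here are 1 least-squares mean per genotype on the authors' normalized scale, with a unit and length correction not given in the sources used here. For that reason no SD, library depth or value per library stands beside any mean, overlap between libraries could not be examined, and the level of one gene is not read against that of another. Whether the 3 libraries of a genotype are separate animals is not stated in the labels, so the p-values measure the spread between libraries, which may be technical.

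BMPs and TGF-beta are secreted ligands that bind pairs of type I and type II serine/threonine kinase receptors, which phosphorylate SMAD proteins that enter the nucleus. Extracellular antagonists such as noggin, follistatin and the chordin family bind the ligands and limit their access to receptors. In skeletal stroma BMP signalling is known for driving osteoblast differentiation, and IGF2 for promoting growth through the IGF1 and insulin receptors. The ID proteins, whose genes are among the classical direct targets of BMP signalling, lack a basic DNA-binding region and hold E proteins away from the E-boxes that these bind.

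Snai2 averaged 9.20 in Snai2-/- cells and 636 in Control cells per the authors' deposited table, in the direction of the labels. Of 12 markers fixed for MSPCs only Angpt1, with means of 126.1 in Snai2-/- and 171.3 in Control cells, had a row in the authors' deposited table. The labelled cell type could therefore not be checked against its other 11 markers, among them Lepr, Cxcl12 and Kitl. No gene reached a false discovery rate (FDR) of 0.05 over the 16718 genes (0%), while 7.69% had an unadjusted p under 0.05, of which genes higher in Snai2-/- cells were 3.77% and genes lower there 3.91% of those tested. By the authors' deposited table, none of the 5 genes passed an FDR of 0.05, 0 passed 0.1 (0.00598% of all genes did) and 0 passed 0.25 (0.132% did). An unadjusted p under 0.01 was held by 2 of them, Bmp3 and Igf2, and by 2.18% of all genes, but the table was the basis of their choice and nothing is read from that count.

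Promoter sequence is shown for Igf2 and Tgfbr2, which differed in opposite directions, to give the letters in which motifs were searched. Snai2 is known to bind the E-box CAGGTG, and whether it binds at these genes was not tested. RefSeq windows (GRCm38.p6) of 250 bases before to 50 after a start site were found for 3 of the 5 genes, 4 of them for Igf2 and 1 each for Id3 and Tgfbr2. The Id3 window (chr4:136143572-136143871, plus strand) lies wholly inside the Id3 span of GENCODE M21, which starts at 136143497. Bases before that annotated Id3 start were therefore not searched. The 250 bases before the most downstream Igf2 start (chr7:142657497-142657746, minus strand) and before the Tgfbr2 start (chr9:116175364-116175613, minus strand) are printed 5′ to 3′, with the GC box GGGCGG or its reverse complement in capitals. Neither stretch overlaps an exon of these genes in GENCODE M21.
Igf2 upstream: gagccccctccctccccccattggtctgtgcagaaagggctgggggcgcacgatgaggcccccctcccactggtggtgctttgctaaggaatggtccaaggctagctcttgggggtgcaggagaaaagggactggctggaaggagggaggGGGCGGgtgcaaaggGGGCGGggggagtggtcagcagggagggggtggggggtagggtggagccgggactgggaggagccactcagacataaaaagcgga
Tgfbr2 upstream: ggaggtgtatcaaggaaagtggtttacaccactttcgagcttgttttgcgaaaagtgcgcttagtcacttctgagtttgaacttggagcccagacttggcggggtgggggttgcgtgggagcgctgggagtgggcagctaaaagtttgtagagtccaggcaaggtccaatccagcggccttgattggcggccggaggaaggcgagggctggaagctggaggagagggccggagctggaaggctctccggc
The Igf2 stretch held 2 GC boxes and 66% G or C, the Tgfbr2 stretch none and 58.4%. The median was 52.4% G or C over 32851 mouse promoter stretches of that length. GC boxes differed between the Igf2 windows, with 1 in that at chr7:142658755-142659054 and no match in the others not printed. The contrast with Tgfbr2 in GC boxes therefore holds for some Igf2 starts and not for others. Among the Igf2 windows, the share of G or C is given for the printed stretch only. CAGGTG, searched on both strands, was in 0 of the 6 windows of Igf2, Id3 and Tgfbr2, and in 20.2% of all windows of the same length. GGCGCC, a palindrome found in BMP-responsive promoters, was in 0 of 6 against 11.9%, and the SMAD palindrome GTCTAGAC in 0 of 6 against 0.213%. The general E-box CANNTG, which includes CAGGTG, was in 3 of 6 windows against 72.3%, and the GC box on either strand in 3 of 6 against 35.7%. These are matches of letters within short windows and say nothing about binding elsewhere.

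Igf2, the imprinted gene of insulin-like growth factor 2, is on chromosome 7 (GRCm38, 142650766 to 142666816, minus strand, ENSMUSG00000048583.16), with 9 annotated transcripts. Its mean per the authors' deposited table was 95.4 in Snai2-/- cells and 10.7 in Control cells, a ratio of 8.93 and a difference of 84.7 on the authors' scale. The authors' deposited table gives it an unadjusted p of 0.00785 and an FDR of 0.429, rank 305 by p. Most of the Igf2 signal over the libraries was thus in the Snai2-/- group, without passing the FDR threshold. The Igf2 span overlaps Gm49394 on the same strand, the antisense gene Igf2os and the microRNA gene Mir483. The libraries do not mark strand and the treatment of overlapping genes in counting is not stated, so reads of these genes cannot be told apart and the Igf2 values are less certain for it.

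Bmp3 (chromosome 5, 98854415 to 98884396, plus strand, ENSMUSG00000029335.5, 3 transcripts) encodes an atypical BMP made in bone, known for opposing osteogenic BMPs. Its mean was 78.6 in Snai2-/- cells against 8.21 in Control cells per the authors' deposited table, a ratio of 9.57 and a difference of 70.4. With an unadjusted p of 8.38e-04 and an FDR of 0.286 it ranked 49 of the 1285 genes per the authors' deposited table, the first of the 5 genes by p. No other gene overlaps it in the annotation. Igf2 and Bmp3 resembled each other in their ratios.

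Ratios of at least 8 were held by 61 of the 1278 genes with a fold (4.77%), Bmp3 and Igf2 among them. Among the 196 genes with a higher mean in Snai2-/- cells and a mean of at least 50 in either genotype, Bmp3 ranked 5 and Igf2 ranked 7 by ratio per the authors' deposited table. Bmp3 and Igf2 were also the 2 of the 5 genes that differed at least 2-fold, which 45.6% of the listed genes with a fold did. Selection at p below 0.05 favours large ratios at low means, so these ranks describe the table.

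**Figure D1:**
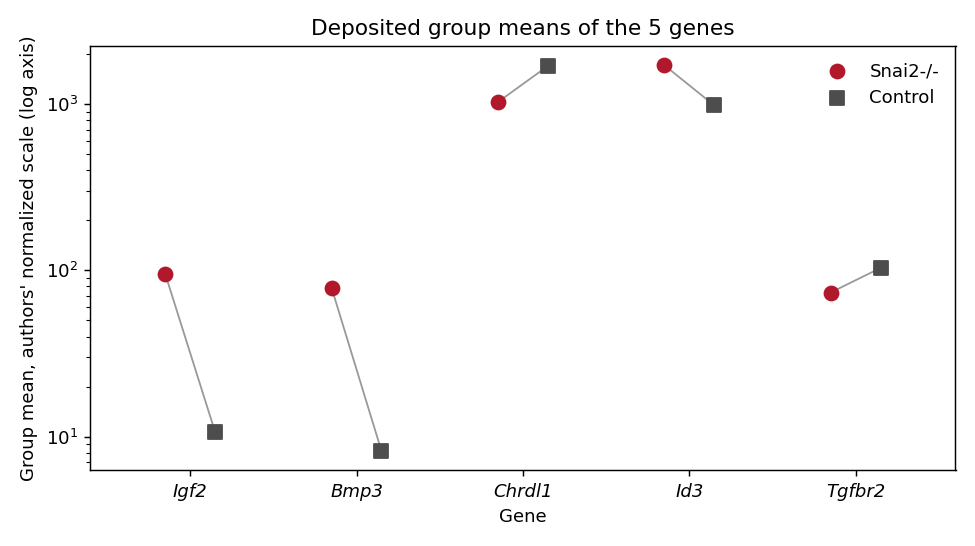
Group means of the 5 genes on the authors' normalized scale (log axis), 1 point per genotype: circles for Snai2-/- and squares for Control cells, with no error since library values were not analysed here. Igf2 (95.4 in Snai2-/- against 10.7 in Control) and Bmp3 (78.6 in Snai2-/- against 8.21 in Control) stand far apart between genotypes, while Chrdl1, Id3 and Tgfbr2 differ by less than 2-fold.

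Chrdl1 is on the X chromosome (143285674 to 143394262, minus strand, ENSMUSG00000031283.16, 5 transcripts). It encodes chordin-like 1, a secreted BMP antagonist. Its mean was 1028 in Snai2-/- cells against 1693 in Control cells per the authors' deposited table (ratio 0.607). The difference of -665.6 on the authors' scale came with an unadjusted p of 0.0237 and an FDR of 0.56, rank 706, per the authors' deposited table. Chrdl1 was detected in both genotypes and had the lowest ratio of the 5 genes. In bulk RNA, fewer cells that express a gene and less of its RNA per cell cannot be told apart, here and for every gene below.

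Id3 (chromosome 4, 136143497 to 136145755, plus strand, ENSMUSG00000007872.3, 3 transcripts) encodes an inhibitor of DNA binding induced by BMPs. It had means of 1711 in Snai2-/- cells and 981 in Control cells per the authors' deposited table (ratio 1.74). The difference of 730.1 on the authors' scale had an unadjusted p of 0.0312 and an FDR of 0.591 per the authors' deposited table, rank 880. Id3 thus shared its direction with Igf2 and Bmp3, at a ratio far closer to 1.

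Tgfbr2 (chromosome 9, 116084293 to 116175360, minus strand, ENSMUSG00000032440.13, 2 transcripts) encodes the type II receptor that binds TGF-beta. It had means of 73.6 in Snai2-/- cells and 103.5 in Control cells per the authors' deposited table, a ratio of 0.711 and a difference of -29.9. Its unadjusted p of 0.0313 and FDR of 0.591, rank 885, were next to those of Id3 per the authors' deposited table. Among the 166 genes with a lower mean in Snai2-/- cells and a mean of at least 50 in either genotype, Chrdl1 ranked 51 and Tgfbr2 ranked 112 by ratio, so neither was among the steepest.

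**Figure D2:**
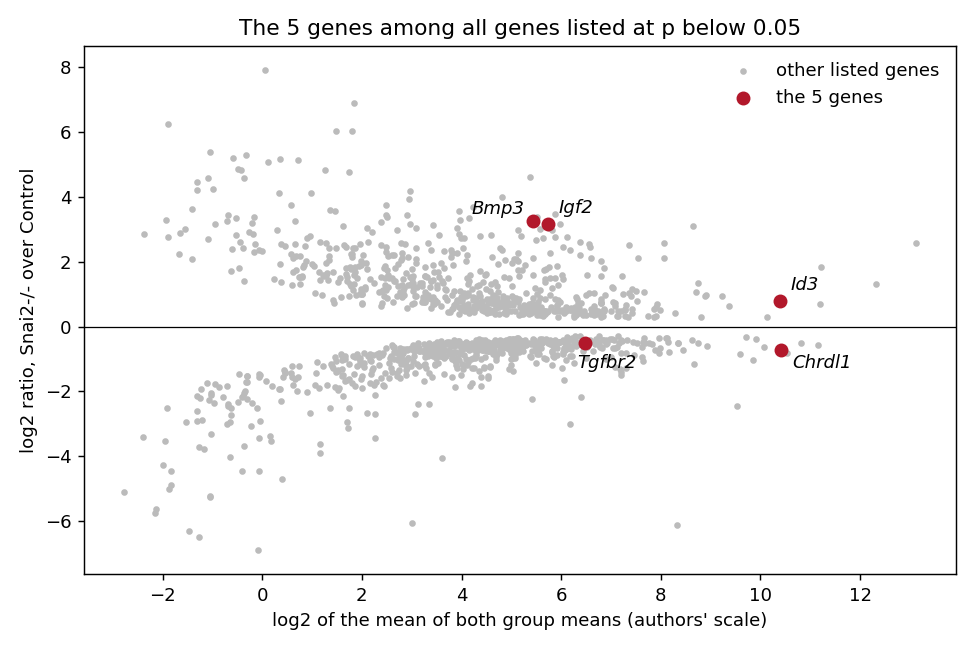
Each of the 1278 listed genes with a fold is a point, with the log2 of the average of both group means on the x axis and the log2 ratio of Snai2-/- over Control on the y axis. Bmp3 (3.26) and Igf2 (3.16) lie near the upper edge for their abundance, and Id3 (0.80), Tgfbr2 (-0.49) and Chrdl1 (-0.72) lie nearer to 0.

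Genes with the most similar pair of means were found by Euclidean distance over the log2 means of both genotypes. Nearest to Igf2 was Ifitm5, an osteoblast membrane protein gene, at 96.1 in Snai2-/- and 11.8 in Control cells, at a distance of 0.138. Cgref1 followed at 84.3 in Snai2-/- and 10.6 in Control cells, and all these means are the group values of the authors' deposited table. Nearest to Bmp3 was Ltf, the granule protein lactoferrin, at 83.3 in Snai2-/- and 8.03 in Control cells, at a distance of 0.0905, and then Rerg at 62.3 in Snai2-/- and 7.90 in Control cells per the authors' deposited table. The genes nearest to Bmp3 and Igf2 thus included a marker of osteoblasts and one of neutrophils. Chrdl1 was closest to Col6a1, a collagen VI chain with means of 1064 in Snai2-/- and 1888 in Control cells per the authors' deposited table, at a distance of 0.165, and then to Dpep1 (0.479). Tgfbr2 lay closest to Gstm5, at a distance of 0.0283, and to Nr3c1, the glucocorticoid receptor gene, at 75.6 in Snai2-/- and 101.8 in Control cells per the authors' deposited table. Id3 had no close partner, since its nearest genes, Ctsl and Calr, lay 0.472 and 1.05 away and had ratios of 1.23 and 0.774 per the authors' deposited table. Likeness rests on 2 group means per gene and on a scale whose length correction is unknown, so a short distance does not show equal RNA levels.

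Of 24 IGF ligands, receptors, binding proteins and modulators 3 were listed (12.5%, against 7.69% of all genes tested), and all 3 had higher means in Snai2-/- cells with 0 at FDR 0.05. Besides Igf2 these were Igfals, whose protein stabilizes circulating IGF complexes, and Stc2, whose protein inhibits a protease of IGF binding proteins. Igfals had means of 47.3 in Snai2-/- and 9.28 in Control cells per the authors' deposited table (unadjusted p = 0.0126, FDR 0.473). Stc2 had low means, 1.49 in Snai2-/- and 0.302 in Control cells, per the authors' deposited table. Igf1, the receptor genes Igf1r, Igf2r and Insr and the binding protein genes Igfbp1 to Igfbp7 were not listed. Each either had a p not under 0.05 or was left untested. The 12.5% counts Igf2, which was chosen from the listed genes. Each list share below likewise counts any of the 5 genes on that list. List shares are over all genes of a list, tested or not, while the 7.69% is over tested genes only. Outside the 5 genes, the BMP and TGF-beta lists together had 19 of 141 genes listed (13.5%). Of these 15 were higher and 4 lower in Snai2-/- cells, with Snai2 among the lower.

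Among ligands, Bmp3, chosen from the listed genes, was the 1 listed gene of 22 BMP and GDF genes (4.55%, against 7.69% of all genes tested). Bmp2, Bmp4, Bmp6 and Bmp7, ligands with osteogenic activity, were not listed. Of 18 genes of TGF-beta, activin and nodal ligands and their carriers 3 were listed (16.7%, against 7.69% of all genes), 2 higher and 1 lower. Without Tgfbi, a matrix protein gene induced by TGF-beta that is also on the target list, the count was 2 of 17 (11.8%), 1 in each direction. The activin subunit gene Inhbb had means of 16.6 in Snai2-/- and 5.15 in Control cells per the authors' deposited table, a ratio of 3.23. Tgfbi had a ratio of 2.82 there, and Lrrc32, which holds latent TGF-beta on the cell surface, a ratio of 0.28, both from the authors' deposited table.

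Extracellular antagonists and modulators had 5 of 30 genes listed (16.7%, against 7.69% of all genes), 4 with higher means in Snai2-/- cells and Chrdl1 with a lower one, so Chrdl1 had the opposite direction to the other listed antagonists. Nog, encoding the BMP antagonist noggin, had means of 16.2 in Snai2-/- and 6.61 in Control cells per the authors' deposited table (unadjusted p = 0.0401, FDR 0.617). Fst, encoding follistatin, which binds activins, had means of 143.1 in Snai2-/- and 79.7 in Control cells per the authors' deposited table. Nbl1, a BMP antagonist of the DAN family, had a ratio of 2.98 per the authors' deposited table. Tll2, encoding a protease of the tolloid family, had a mean of 1.31 in Snai2-/- cells. In Control cells it stood at 0.0001, the lowest value of the authors' deposited table, so no fold is given. The list's median log2 ratio was 1.07 without Tll2 and 1.30 with it placed highest. The median over all 1278 listed genes with a fold was -0.35, with 628 higher and 650 lower. That median falls among the lower genes with ratios nearest to 1, so it is not a baseline for the list. Chordin itself, Grem1 and Sost were not listed.

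All 3 listed receptor genes of 15 (20%, against 7.69% of all genes) had lower means in Snai2-/- cells, and Tgfbr2 was in the middle of them. Acvrl1, the type I receptor ALK1, had means of 35.8 in Snai2-/- and 53.7 in Control cells per the authors' deposited table, a ratio of 0.667 (unadjusted p = 0.00505, FDR 0.385). Acvr2a, a type II receptor of activins and some BMPs, had means of 51.5 in Snai2-/- and 71.2 in Control cells per the authors' deposited table (ratio 0.723). The 3 ratios lay between 0.667 and 0.723, and none was at FDR 0.05. Tgfbr1, the type I partner of Tgfbr2, and the BMP receptor genes Bmpr1a and Bmpr2 were not listed. Acvrl1 is also expressed by endothelium, of whose 7 markers 2 were listed per the authors' deposited table, Flt4 higher and Vwf lower, summing to 8.23 in Snai2-/- and 26.3 in Control cells. Their part in the Acvrl1 value was not tested.

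Of 25 SMAD genes and their regulators 1 was listed (4%, against 7.69% of all genes), the SMAD co-repressor gene Skil, with means of 42.6 in Snai2-/- and 22.1 in Control cells per the authors' deposited table. Of 21 ID family and BMP target genes 4 were listed (19%, against the same 7.69%), and the 4 had higher means in Snai2-/- cells with 0 at FDR 0.05. Beside Id3 these were Dlx3, a homeobox gene of bone formation, Atoh8 and Hey1, at ratios of 8.16, 1.60 and 1.51 per the authors' deposited table. Id1, Id2 and Id4 were not listed, nor were Runx2 and Sp7, so Id3 was the 1 listed member of its family. The E protein genes Tcf3, Tcf4 and Tcf12, whose products ID proteins bind, were not listed either, with 0 of 9 genes on the list of helix-loop-helix partners.

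TGF-beta target genes, downstream of the receptor that Tgfbr2 encodes, had 8 of 25 listed (32%, against 7.69% of all genes). Of these, 7 had higher means in Snai2-/- cells and Snai2 itself a lower one. The 32% counts Snai2, whose own difference is that of the genotype and tells nothing about TGF-beta targets. The 7 genes thus differed in the opposite direction to Tgfbr2. Col1a1 had means of 15244 in Snai2-/- and 2546 in Control cells per the authors' deposited table, a ratio of 5.99, and the ratio was 4.13 for Fn1, 2.97 for Postn and 2.09 for Mmp2. The cell-cycle inhibitor gene Cdkn1a had a ratio of 2.25 per the authors' deposited table, and 0 of the 8 were at FDR 0.05. Col1a1, Fn1, Postn and Mmp2 are also matrix genes of osteoblasts and stroma, so the list is not specific to TGF-beta. The other 2 of the 7 higher genes were Tgfbi and Skil, at ratios of 2.82 and 1.93 per the authors' deposited table. Smad7 and Pmepa1 were not listed, so each either had a p not under 0.05 or was left untested. Whether TGF-beta signalling differed between the genotypes was not tested.

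**Figure D3:**
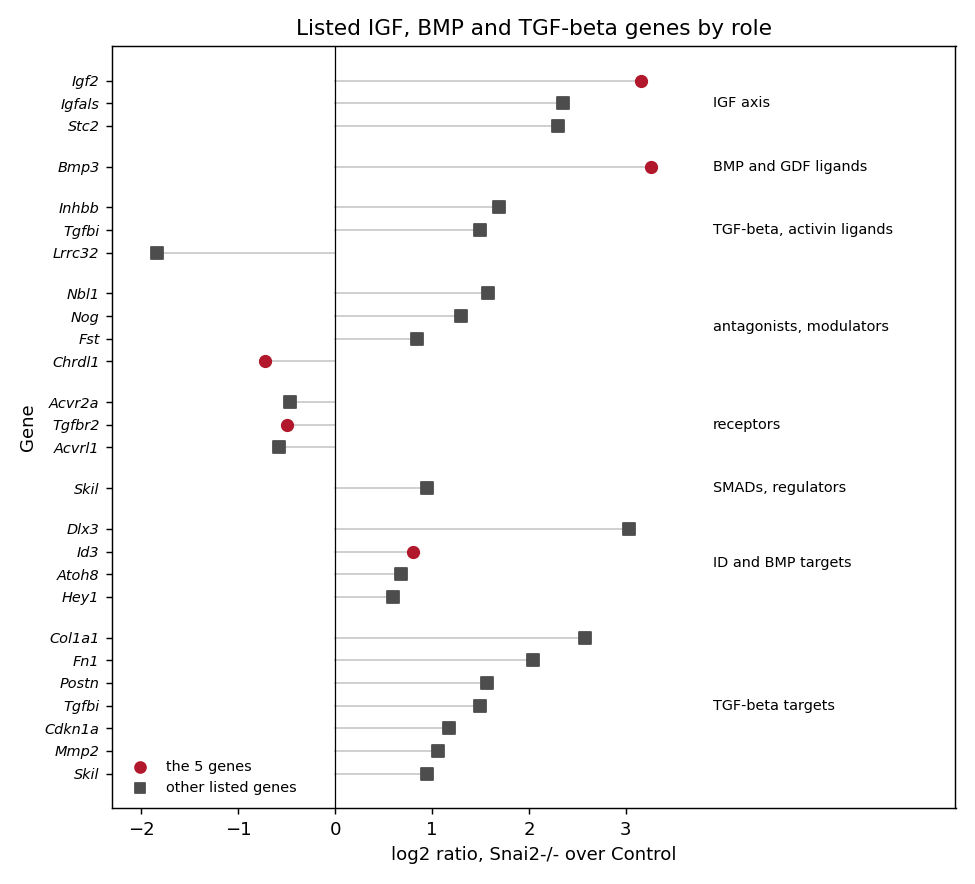
Log2 ratio of Snai2-/- over Control for each listed gene of the IGF, BMP and TGF-beta lists, grouped by role, with circles for the 5 genes and squares for the others (Tgfbi and Skil are on 2 lists; Snai2 and Tll2 are not drawn). Every receptor gene shown lies below 0, every ID family and BMP target gene above 0, and Chrdl1 opposite to the other antagonists.

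Markers of other cells in the marrow were also listed in this comparison, none at FDR 0.05. Of all genes tested, 7.69% were listed. Of 12 osteoblast markers 6 were listed per the authors' deposited table, 5 higher and 1 lower, summing to 24024 in Snai2-/- and 6036 in Control cells. The 4 listed of 8 chondrocyte markers summed to 707 in Snai2-/- and 145.9 in Control cells per the authors' deposited table. The 7 listed of 10 neutrophil markers summed to 820.1 in Snai2-/- and 186.4 in Control cells per the authors' deposited table, although the sort selects against CD45. Sums cover listed markers only, and no listed marker of these 3 types stood at 0.0001. Of 4 general leukocyte markers 1 was listed, Cd48, and of 5 erythroid markers 1, Car1, both with higher means in Snai2-/- cells. Igf2, Bmp3 and Id3 were higher in the same group as these markers, whose part in the values of the 5 genes was not tested.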

How the data were processed

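Per the labels' protocols, RNA was amplified with SMART-Seq v4 and sequenced from Nextera XT libraries, which do not mark strand. Trim Galore, HTSeq, edgeR 3.12.0 and mm10 are named in the submitters' processing notes with no role, with neither aligner nor annotation given in the sources used here. Per the file headers, the deposited table compares mutant with wildtype, read here as Snai2-/- and Control. It holds the authors' unadjusted p-value, step-up FDR, ratio, signed fold change (a score that repeats the ratio) and least-squares means. The means and the total are the authors' normalized signal, as 0 of 1285 totals are whole. Within a relative 1e-06 each total is 3 times the summed means.

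No model was fitted, because the file used here has no library values. The p and FDR quoted are the authors'. The 16718 genes tested were inferred as the maximum of FDR times rank over p, a step that returned the true number for 10 of 10 simulated tables. Depth is unknown, so no counting interval is given. The 7 genes with a mean at 0.0001 get no fold.

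The 5 genes and the 10 lists (197 genes, 214 of 214 symbols matched in RefSeq) were chosen with earlier results of these data known. Named genes are the 5 members, Snai2, list members and the 2 genes nearest to each member (predicted genes, Rik clones and means under 0.01 left out). Unlisted genes were named as examples. The limit of 50 on the mean, the ratio limit of 8 and the searches for CANNTG and the GC box were chosen after values were seen. Gene coordinates (1-based) come from GENCODE M21 on GRCm38, the assembly of mm10. Promoter sequences are from RefSeq. Python 3.11.15, numpy 2.4.6, pandas 2.3.3 and matplotlib 3.10.9 were used.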

Additional observations from a re-analysis of the deposited data

How the results depend on the processing

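At the authors' FDR, 0 of the 5 genes passed 0.05, 0.1 or 0.25, while 5 passed an unadjusted p of 0.05, as selection requires, and 2 (Bmp3 and Igf2) passed 0.01. The number at least 2-fold apart was 2, and 4 at a limit of 1.5. Pseudocounts of 0.1, 1 and 5 can change the size of the 5 log2 ratios but not their sign. At a pseudocount of 5 they were 2.66 for Bmp3 and 2.68 for Igf2, against 3.26 and 3.16 without one. The 5 lists of ligands, modulators, receptors and SMADs had 13 genes listed, 8 higher and 5 lower. With p below 0.02 these were 6, 5 and 1, at a 2-fold limit (Tll2 has no fold) 6, 5 and 1, and without Tgfbi, a change chosen after seeing the data, 12, 7 and 5. The 2 target lists had 12 listed and 11 higher, against 7 and 6 with p below 0.02, and 7 higher at a 2-fold limit. The 1 lower gene in each case was Snai2 itself. These limits only remove genes. In 33 of 46 comparisons with an alternative the value stayed within 1.5 times. That 0 reversed says nothing, since neither a count nor a pseudocount could reverse a sign here. No paired analysis was possible because only means of each genotype were at hand. For the same reason left-out libraries, other normalizations and count models were not run, and whether 1 library decides a value could not be examined.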

Other observations

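Igf2 was 1 of 3 listed genes on a list of 24 imprinted genes (12.5%, against 7.69% of all genes tested). The share counts Igf2, which was chosen from the listed genes. Nnat, the neuronatin gene, had means of 8.46 in Snai2-/- and 2.43 in Control cells per the authors' deposited table (unadjusted p = 0.00434, FDR 0.38). Sgce had means of 243.7 in Snai2-/- and 311.1 in Control cells per the authors' deposited table, a ratio of 0.783. H19, which shares the imprinted domain of Igf2, was not listed, and neither were Dlk1, Meg3, Peg3 or Cdkn1c. The 3 listed imprinted genes therefore did not share a direction.

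The listed gene nearest to Igf2 on chromosome 7 was Tnfrsf23, 999 kb away, with a ratio of 2.69 per the authors' deposited table, and the next, Mrgpre, had a ratio of 0.515 there. Luzp1, 324 kb from Id3, had a ratio of 0.77 per the authors' deposited table. The nearest listed genes to Bmp3, Tgfbr2 and Chrdl1 were over 1 Mb away. None of the 5 genes lies on chromosome 16 with Snai2.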
